A study of Mus musculus with 12 samples.

Results

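The miR-99 and miR-100 family of microRNAs (miRNAs) was followed in BC3H1 cells, a mouse line from a brain tumour that has muscle-like properties. Its members were taken by name from the array annotation, and the 3 probes for mmu-miR-99a, mmu-miR-99b and mmu-miR-100 were all found among 417 probes for mouse miRNAs. The naming rule used no measured values, but the members were chosen with earlier results of these data known. Total RNA was measured on 12 two-colour Exiqon miRCURY LNA arrays, 4 for each of 3 groups. RS_DMSO were rapamycin-sensitive cells given DMSO for 24 h, and RS_Rap were the same cells given 100 nM rapamycin for 24 h. RR_Rap was the resistant line RR1, which arose from BC3H1 cells held in 1 µM rapamycin for 6 months and was kept in the drug. All groups grew in DMEM with 20% serum. The labels do not say whether RR1 is 1 clone. The resistant line differs from the treated sensitive cells in line, dose and length of exposure at once, so these cannot be told apart. The labels do not state that the 4 samples of a group were separate cultures. Every p-value below therefore covers a spread among samples of the same group, and that spread may be technical. In the main fit it is estimated jointly from all 3 groups, also from the group that a comparison leaves out.

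A miRNA pairs with target messenger RNAs mainly through its seed, the stretch near its 5′ end, and lowers their stability or translation. The family is known in human and mouse cells for targeting Mtor, which encodes the growth-controlling kinase mTOR, and Rptor, which encodes Raptor, the scaffold that brings substrates to the mTOR complex blocked by rapamycin. The genes of the family lie beside genes of the let-7 and miR-125 families, an arrangement that is conserved among animals. miR-125b is a repressor of many messengers in differentiating cells, and let-7 is known for restraining growth and RAS genes.

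The mature strands are shown because the family is defined by its seed and because its members differ by few bases. Bases 2 to 8, the seed, are in capitals, and the sequences are those of RefSeq on mouse build GRCm38.p6. All 3 members were matched.
miR-99a: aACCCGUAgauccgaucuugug
miR-99b: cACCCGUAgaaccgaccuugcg
miR-100: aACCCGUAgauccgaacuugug
The seed is the same in all 3, and of 1679 mature mouse miRNA names in the RefSeq table only these 3 carry it. Counted from 1 at the 5′ end, miR-99a and miR-100 differ by the single substitution U16A and share 21 of 22 bases. From miR-99a to miR-99b there are 4 substitutions, A1C, U11A, U16C and U21C, and none lies in the seed. The probe sequences were not used here, so how far the miR-99a and miR-100 probes bind each other's target was not tested.

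The neighbours belong to other seed families, which is shown by 4 of their mature strands with the same bases in capitals.
let-7c: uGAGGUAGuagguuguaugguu
let-7e: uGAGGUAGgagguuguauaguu
miR-125a-5p: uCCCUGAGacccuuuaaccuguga
miR-125b-5p: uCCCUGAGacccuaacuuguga
The strand opposite miR-99b in its hairpin, named miR-99b* on the array, is the opposite strand of the family that was analysed here, and it carries a seed of its own.
miR-99b*: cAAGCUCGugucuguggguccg

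Each member has 1 gene in the annotation. The mature miR-99a lies at chr16:77598940-77598961, on the plus strand. It lies outside the non-coding gene Mir99ahg, which ends 40.5 kb away, and overlap with further genes was not analysed here. Mirlet7c-1 begins 656 bases from the Mir99a hairpin, and Mir125b-2 lies 47.3 kb away. The mature miR-99b lies at chr17:17830194-17830215, on the plus strand, inside the protein-coding gene Spaca6, with Mirlet7e 94 bases and Mir125a 554 bases from its hairpin. The mature miR-100 lies at chr9:41531437-41531458, on the plus strand, inside the long non-coding RNA gene Mir100hg, with Mirlet7a-2 at 5.2 kb and Mir125b-1 at 50.4 kb. The table gives no exons, so whether miR-99b and miR-100 are exonic or intronic was not determined here. Of the neighbours, miR-125b-5p and let-7c are each made at 2 loci, and let-7a is made at a further locus, so their probes do not read 1 cluster alone.

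The values are log2 ratios of the sample (Hy3 dye) over a common RNA pool (Hy5 dye) after background correction and loess normalization within each array. The dyes were not swapped. One label describes the pool as an equal mixture of the conditions and another as RNA of 9 samples, where there are 12, so its makeup is unsettled. A ratio is a level relative to that pool, a change is a difference between group means, and a probe was called changed at an adjusted p under 0.05. An offset added before the logarithm draws the changes of dim probes towards 0. The groups were scanned one after the other, the treated sensitive cells first, then the DMSO cells and then the resistant line, so scan order and group cannot be told apart. On replicate 3 of the DMSO group the highest of 7 negative-control probes read 304.5 in Hy3, against 125.5 to 162 on the other 11 arrays, and 131 probes exceeded the negative controls against 178 to 229. This array correlated with the other DMSO arrays at r from 0.57 to 0.71. On replicate 2 of the resistant line the 90th percentile of Hy3 signal was 310.3, against 435.1 to 869.8 elsewhere. Of the muscle-enriched miRNAs, miR-1 and miR-206 exceeded the negative controls on 11 of 12 arrays and miR-133a and miR-133b on 0, so the muscle-like label was borne out by part of its markers. miR-124, a defining miRNA of neurons, exceeded them on 0 arrays, and miR-9, which neural progenitors also make, on 8. Of the blood-cell markers, miR-451 exceeded them on 0 arrays and miR-223 on 1.

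The mean Hy3 signal of miR-100 over its 4 spots ran from 121.5 to 277.6, and its median signal exceeded the negative controls on 10 of 12 arrays. The exceptions were replicate 3 of the DMSO group and replicate 2 of the resistant line. For miR-99a the mean signal ran from 123.4 to 258. The highest was on replicate 3 of the DMSO group, where the probe did not exceed the negative controls, and elsewhere it was at most 183. It exceeded them on 7 of 12 arrays, which were all 4 of the treated sensitive cells, 2 of the DMSO group and 1 of the resistant line. The miR-99a probe was thus close to the negative controls, with a median of 1.04 times their highest. miR-99b exceeded them on all 12 arrays, by 1.6 to 8.86 times, with mean signals from 216.1 to 1099. Its lowest signal was again on replicate 2 of the resistant line, where the pool was low too, at 264.1 against 719.7 to 1286 on the other arrays. No spot of the family was saturated or removed as an outlier among 48 spots for each member.

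**Figure D1:**
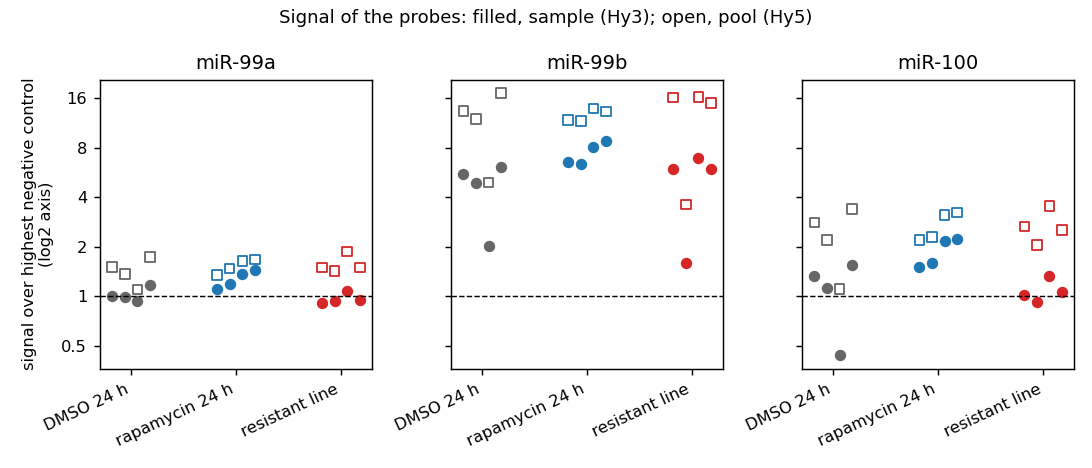
Median signal of each family probe divided by the highest negative control of the same array (log2 axis), for the sample channel (filled circles) and the pool (open squares), with the 4 arrays of each group side by side in the order of their replicate numbers. The dashed line is the negative control. miR-99b lies above it on all 12 arrays, and miR-99a in the sample channel on 7.

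miR-100 was the 1 member whose level differed between groups at the threshold, and it did so between the resistant line and the sensitive cells after 24 h of rapamycin. Its log2 ratios in the resistant line were -0.54, -0.58, -0.60 and -0.55 for replicates 1 to 4. In the sensitive cells with rapamycin they were -0.19, -0.14, 0.05 and -0.29. The lowest array of the treated sensitive cells lay above the highest of the resistant line, so the groups did not overlap. miR-100 was lower in the resistant line by 0.43 on the log2 scale, a 1.34-fold difference (log2 change -0.43 ± 0.14, SE, n = 4 and 4, 95% interval -0.73 to -0.12, limma adjusted p = 0.0364). Of all 417 probes, 120, or 28.8%, were called in this comparison, 63 of them higher (15.1%) and 57 lower (13.7%). The groups did not overlap for 166, or 39.8%. The 1 called member of 3, and the 2 whose groups did not overlap, are to be read against these shares. In bulk RNA, fewer cells with a miRNA and less of it per cell cannot be told apart.

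The call for miR-100 was not stable. It was lost when any of replicates 1, 2 and 3 of the treated sensitive cells, or any of the 4 replicates of the resistant line, was left out. Without those arrays the change ran from -0.44 to -0.36 and the adjusted p from 0.0696 to 0.102. Without replicate 3 of the DMSO group, which is in neither group but adds to the shared estimate of the spread, the adjusted p was 0.000591. The call was kept in 10 of 14 alternative settings, among them array weights and only the groups compared. It was lost with an offset of 10 (change -0.51, adjusted p = 0.0766) and with the sample channel alone (-0.54, adjusted p = 0.0968). An unmoderated test (adjusted p = 0.0696) and the replicate number as a block also lost it. The direction was the same in every setting and left-out array tried, but the size differed between ways of making the ratios. The change was -0.71 without loess, -0.72 with spike-in centring, -0.74 among the deposited values and -0.92 with the scanner's processed signals, all called. Spike-in centring only shifts the ratios without loess by a constant per array, and the deposited values follow those ratios closely. Agreement among these settings, here and below, is therefore not independent.

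miR-100 did not differ from the DMSO group at the threshold in either other comparison. Its ratios in the DMSO group were -0.47, -0.27, -0.99 and -0.23, a spread of 0.35 (SD) against 0.14 in the treated sensitive cells and 0.03 in the resistant line. Replicate 3 was the low one, although its deposited value of -0.13 lay within those of the other DMSO arrays, -0.25 to -0.11. It is also the array with the high negative controls. After 24 h of rapamycin the mean was higher by 0.35 ± 0.14 (SE, 95% interval 0.04 to 0.65, limma adjusted p = 0.158), where 14 of 417 probes, 3.36%, were called, 1.68% higher and 1.68% lower, and 14.9% had groups that did not overlap. Without replicate 3 of the DMSO group that difference was 0.18 with an adjusted p of 0.193. For the resistant line against DMSO it was -0.08 ± 0.14 (95% interval -0.38 to 0.23, adjusted p = 0.760), where 97 probes, 23.3%, were called, 12.9% higher and 10.3% lower, and 25.4% did not overlap. Without replicate 3 this difference was -0.24 with an adjusted p of 0.0384. In the main setting, that 1 array thus decided whether miR-100 was called lower in the resistant line than in DMSO. In order of mean level, miR-100 was highest in the treated sensitive cells, then in DMSO and then in the resistant line, and neither pair of neighbours in that order differed at the threshold.

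**Figure D2:**
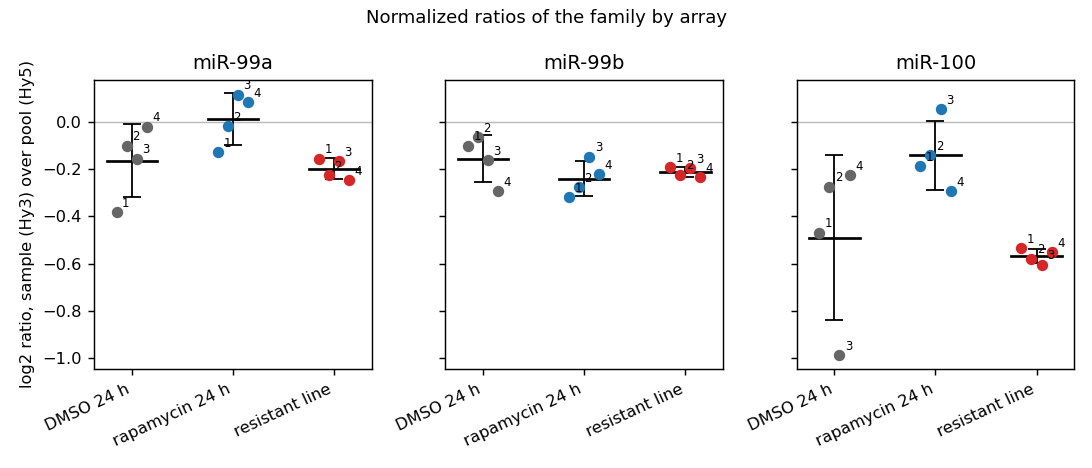
Normalized log2 ratio of sample over pool for each member on each of the 12 arrays, with the replicate number beside each point, and the mean (long bar) and SD (error bar) of each group of 4. For miR-100 the 4 arrays of the resistant line sit between -0.60 and -0.54, all below the treated sensitive cells, and replicate 3 of the DMSO group is lowest at -0.99.

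The spots behind 2 of these arrays disagreed. On replicate 4 of the treated sensitive cells, 3 of the 4 miR-100 spots had log2 ratios of -0.12, -0.13 and -0.08, and the remaining spot had -0.85 with a Hy5 signal of 84.98 against 233.6 to 240.6. On replicate 3 of the DMSO group the 4 spots ran from -1.20 to -0.58, so all of them were low after normalization. With the median of the spots in place of their mean, a setting chosen after seeing these values, replicate 4 moved from -0.29 to -0.12 and the resistant line was lower than the treated sensitive cells by 0.47 on the log2 scale (change -0.47, adjusted p = 0.0348).

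**Figure D3:**
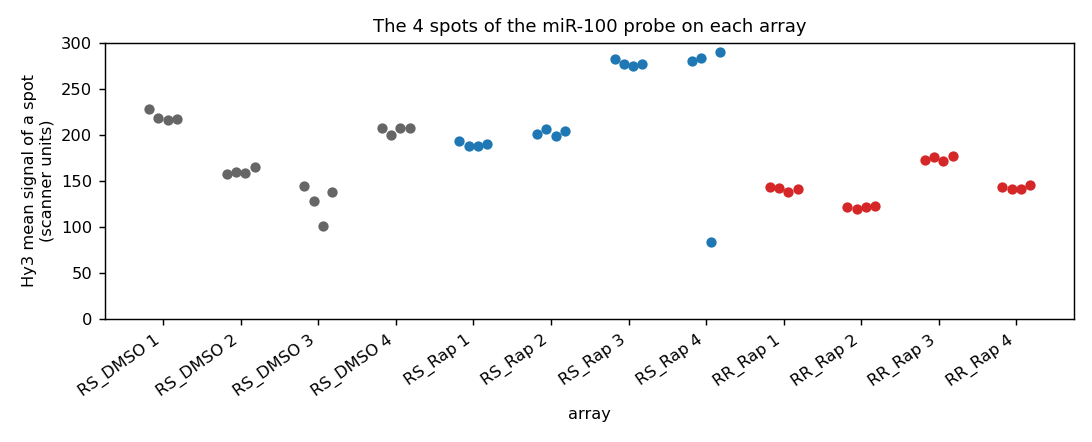
Mean Hy3 signal, in scanner units before normalization, of each of the 4 spots of the miR-100 probe on each array. The spots of an array lie close together except on replicate 4 of the treated sensitive cells, where 1 spot lies far below the other 3, and on replicate 3 of the DMSO group.

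miR-99a had its group means in the same order as miR-100 but missed the threshold in every comparison. Its ratios were -0.38, -0.10, -0.16 and -0.02 in DMSO, -0.13, -0.02, 0.11 and 0.08 after 24 h of rapamycin, and -0.16, -0.23, -0.17 and -0.25 in the resistant line. The resistant line and the treated sensitive cells did not overlap, while the DMSO group reached across both. The resistant line minus the treated sensitive cells was -0.21 ± 0.08 (SE, n = 4 and 4, 95% interval -0.38 to -0.05, limma adjusted p = 0.0547). This p lies just beyond the threshold, and without replicate 1 or replicate 4 of the DMSO group or replicate 1 of the treated sensitive cells it was 0.0161, 0.0431 and 0.0291. The change after 24 h of rapamycin was 0.18 ± 0.08 (95% interval 0.01 to 0.34, adjusted p = 0.177), and that of the resistant line against DMSO was -0.03 ± 0.08 (95% interval -0.20 to 0.13, adjusted p = 0.818). Since 3 of the 4 arrays of the resistant line did not exceed the negative controls, the level of miR-99a there was barely measured.

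miR-99b did not differ between groups at the threshold. Its ratios were -0.10, -0.07, -0.16 and -0.29 in DMSO, -0.32, -0.28, -0.15 and -0.22 after 24 h of rapamycin, and -0.19, -0.22, -0.20 and -0.23 in the resistant line. The 3 groups overlapped. The change after 24 h of rapamycin was -0.09 ± 0.05 (95% interval -0.20 to 0.03, limma adjusted p = 0.328), that of the resistant line against DMSO was -0.06 ± 0.05 (95% interval -0.17 to 0.06, adjusted p = 0.527), and that of the resistant line against the treated sensitive cells was 0.03 ± 0.05 (95% interval -0.09 to 0.15, adjusted p = 0.738). These intervals are those of the loess-normalized ratios alone, and the direction of miR-99b differed between ways of making the ratios. Its change after 24 h of rapamycin was 0.54 without loess, 0.475 in the deposited values and 0.47 with centring on spike-in controls, and that of the resistant line against the treated sensitive cells was -0.51, -0.50 and -0.52. All 6 of these values were called, though the 3 settings rest on nearly the same ratios and are not independent. From the sample channel alone, the last of these changes was -0.33, not called. The median change of all probes after 24 h of rapamycin was -0.02 with loess and 0.11, 0.03 and 0.04 in these 3 settings, so relative to the median miR-99b was higher by 0.43, 0.44 and 0.43. Among the deposited log2 values miR-99b read 0.01 to 0.15 on the 4 arrays of the treated sensitive cells, -0.66 to -0.21 in DMSO and -0.50 to -0.28 in the resistant line.

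**Figure D4:**
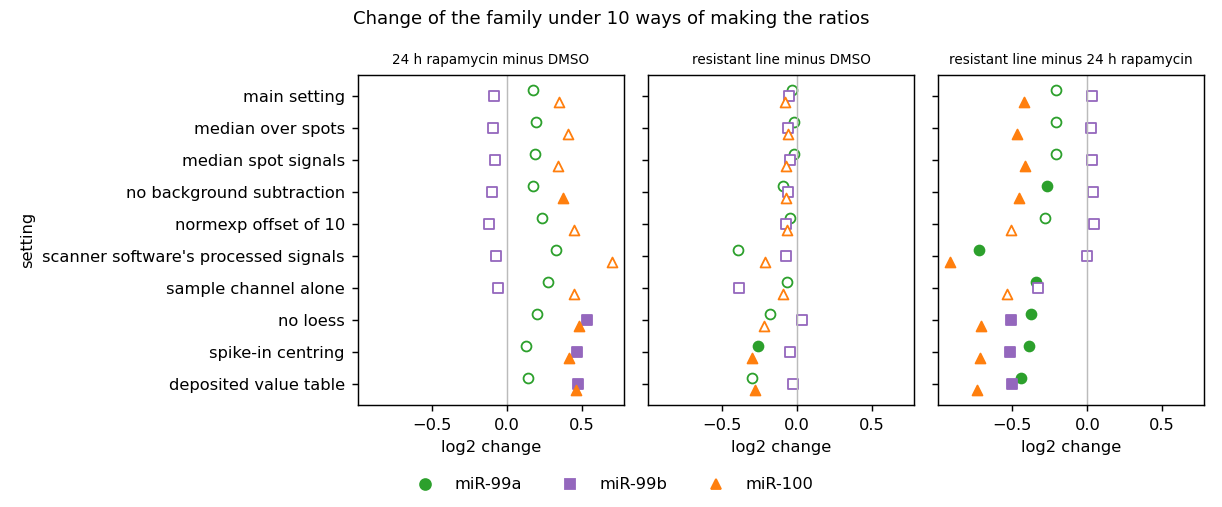
Log2 change of miR-99a (circles), miR-99b (squares) and miR-100 (triangles) in the 3 comparisons under 10 ways of making the ratios, with filled symbols at an adjusted p under 0.05. miR-100 and miR-99a lie below 0 in the right-hand panel under all 10, and miR-99b changes side there with the sample channel alone, without loess, with spike-in centring and in the deposited value table.

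Whether the members changed by unequal amounts was tested on the difference of their ratios within each array, which cancels a scaling that acts alike on both. There were 9 such tests, 3 pairs in 3 comparisons, and none passed after adjustment over the 9. With so few arrays, several of the 9 had to reach the smallest possible p before any could pass. That none passed therefore does not show that the members changed alike. Between the resistant line and the treated sensitive cells, miR-100 minus miR-99b changed by -0.46 and miR-99a minus miR-99b by -0.24. Both had groups that did not overlap and an exact two-sided permutation p of 0.0286, the smallest that 4 against 4 arrays allow, with an adjusted p of 0.129. Loess depends on brightness and need not cancel in these differences, and miR-99a minus miR-99b turned to 0.13 without it, 0.13 with spike-in centring and 0.06 in the deposited values. In these 3 settings miR-100 minus miR-99b kept its sign at -0.20, -0.20 and -0.235, and with the sample channel alone it was -0.21. Spike-in centring shifts the ratios without loess by a constant per array, so its differences within arrays must equal those without loess. The deposited values also follow the ratios without loess closely, so these 3 settings are not separate support. miR-100 minus miR-99a changed by -0.21 in that comparison (exact p = 0.0857, adjusted p = 0.193).

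The neighbours at the 3 loci did not all move as the family did. Of the 5 measured, miR-125b-5p rose after 24 h of rapamycin, where 1.68% of all probes were called higher. Against DMSO 3 of the 5 fell in the resistant line, miR-125b-5p, miR-125a-5p and let-7c, where 10.3% of all probes were called lower, and the same 3 fell against the treated sensitive cells, where 13.7% were. The median change of the 5 was 0.00, -0.17 and -0.24 in the 3 comparisons, beside -0.02, -0.01 and 0.03 over all 417 probes. At the locus of miR-100, miR-125b-5p was -0.82, -0.77, -0.81 and -0.83 in the resistant line against 0.47, 0.27, 0.31 and 0.24 in the treated sensitive cells, and 0.13, 0.10, -0.13 and 0.08 in DMSO. Its resistant-line arrays lay below all others, with changes of -1.13 ± 0.06 against the treated sensitive cells (adjusted p = 4.60e-08) and -0.85 ± 0.06 against DMSO (adjusted p = 6.76e-07). Both calls were lost with Hy3 alone (adjusted p = 0.0505 and 0.246), and the first change was -1.81 without loess, -1.80 among the deposited values and -1.82 with spike-in centring. Its change after 24 h of rapamycin was 0.28 ± 0.06 (adjusted p = 0.0321), a call that was lost, with adjusted p from 0.0518 to 0.0909, without replicate 2 of DMSO, any replicate of the treated sensitive cells, or replicate 1 or 4 of the resistant line. It was also lost with an offset of 10 (0.28), processed signals (0.35), the sample channel alone (0.63) and only the groups compared (0.28), and the change was 0.94 without loess, 0.94 among the deposited values and 0.88 with spike-in centring. The let-7a probe, the other neighbour of miR-100, had changes of -0.01, -0.02 and 0.00, none called, but after 24 h of rapamycin it was called higher without loess (0.89), with spike-in centring (0.82) and among the deposited values (0.88). In the same 3 settings the resistant line was called lower than the treated sensitive cells for let-7a, at -0.89, -0.90 and -0.88. After 24 h of rapamycin, let-7c was also called higher in them (0.81, 0.75 and 0.80), as was miR-125a-5p (0.70, 0.63 and 0.66).

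At the locus of miR-99b, miR-125a-5p fell in the resistant line by 0.41 on the log2 scale against DMSO (change -0.41 ± 0.05, adjusted p = 0.000135) and by as much against the treated sensitive cells (-0.41 ± 0.05, adjusted p = 0.000108). Its groups did not overlap in either, and the second change was -1.03 without loess, -1.04 with spike-in centring and -1.01 among the deposited values. let-7e, 94 bases from miR-99b, was not called, with changes of 0.38 ± 0.20, 0.14 ± 0.20 and -0.24 ± 0.20, and its DMSO arrays were at -0.01, 0.03, -1.07 and 0.04. Without replicate 3, the low one, the change against the treated sensitive cells was called (-0.24, adjusted p = 0.00246), and that against DMSO was -0.13 (adjusted p = 0.0984). At the locus of miR-99a, let-7c fell in the resistant line by 0.17 against DMSO (change -0.17 ± 0.05, adjusted p = 0.0215) and by 0.14 against the treated sensitive cells (-0.14 ± 0.05, adjusted p = 0.0361). The let-7c call against DMSO was lost in 7 of the 14 alternative settings: an offset of 10, no loess, processed signals, the deposited values, the sample channel alone, spike-in centring and only the groups compared, with adjusted p from 0.0647 to 0.346. That against the treated sensitive cells was lost in 3 of 14, an offset of 10, processed signals and the sample channel alone, with adjusted p from 0.226 to 0.634, and the change was -0.93 without loess. The call against DMSO was also lost without replicate 3 or 4 of the resistant line, and the other without any replicate of the treated sensitive cells or replicate 1, 3 or 4 of the resistant line, with adjusted p from 0.0567 to 0.106.

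**Figure D5:**
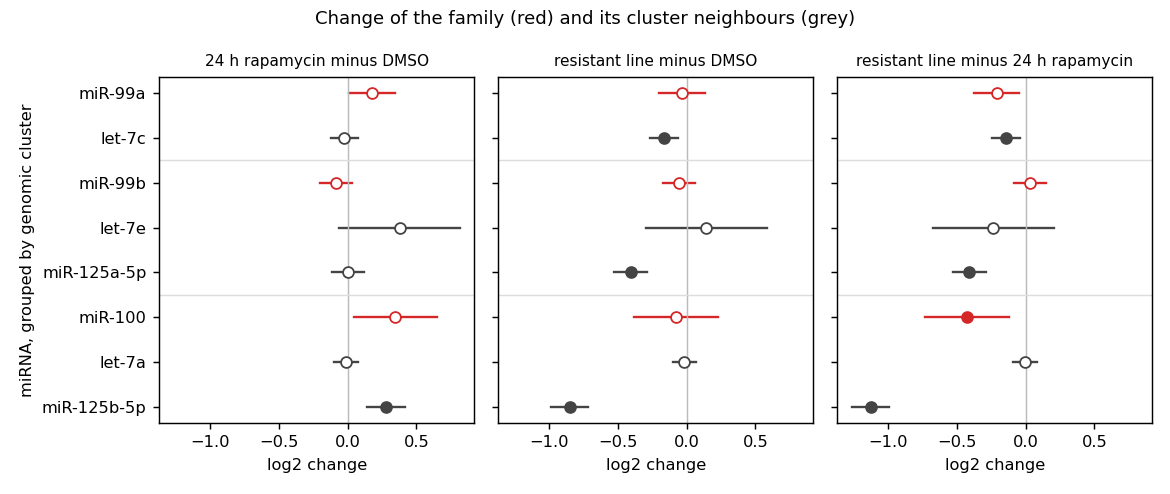
Log2 change with its 95% interval for the family (red) and its neighbours (grey) in the 3 comparisons, ordered by locus with a line between loci, and filled where the adjusted p was under 0.05. miR-125b-5p lies far below miR-100 in both comparisons of the resistant line, and miR-125a-5p below miR-99b.

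The difference between each member and its neighbour was tested in the same way within arrays, a set of 15 tests added after seeing the data. It had 6 at the smallest exact p of 0.0286, each with an adjusted p of 0.0714, and none passed. More than these 6 had to reach that p before any could pass, so this does not show that members and neighbours changed alike. In the resistant line against DMSO, miR-100 minus miR-125b-5p was 0.77 and miR-99b minus miR-125a-5p was 0.35. Against the treated sensitive cells these were 0.70 and 0.44. There miR-100 minus let-7a was -0.42, which turned to 0.18 without loess, and miR-99b minus let-7e was 0.27, which turned to -0.27 with the sample channel alone. For miR-99a minus let-7c the differences were 0.20, 0.13 and -0.07, with exact p of 0.114, 0.257 and 0.314.

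None of the 4 opposite strands was called in the main setting, where 3.36%, 23.3% and 28.8% of all probes were called in the 3 comparisons. With so few strands, none called is to be read against these shares. miR-99b* ran from -0.43 to -0.07 over the 12 arrays and exceeded the negative controls on 2 of them, so it was hardly measured, and its changes were 0.07, 0.04 and -0.04. miR-125a-3p, miR-125b-3p and the probe shared by let-7a* and let-7c-2* had changes between -0.23 and 0.20 in the 3 comparisons. The smallest adjusted p of the 4 strands was 0.0692, for miR-125b-3p in the resistant line against DMSO (change -0.23). Without replicate 4 of DMSO this change was called (-0.28, adjusted p = 0.0232), and it was called in 4 of 14 settings, at -0.46 to -0.18. Against the treated sensitive cells miR-125b-3p was called without replicate 3 of DMSO (-0.18, adjusted p = 0.0279) and in 6 of 14 settings, at -0.62 to -0.18. miR-125a-3p was called higher against DMSO without replicate 2 of DMSO (0.26, adjusted p = 0.0206) and with an offset of 10 (0.30), and against the treated sensitive cells with array weights (0.16) and only the groups compared (0.14). miR-99b* was called without loess, among the deposited values and with spike-in centring, at 0.29, 0.25 and 0.22 after 24 h of rapamycin and at -0.26, -0.34 and -0.28 in the resistant line against the treated sensitive cells.

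Other miRNAs that are known, mostly from human cells, to target Mtor, Rptor or the related component Rictor were measured by 6 probes. Of these, 0 were called after 24 h of rapamycin, where 3.36% of all probes were. In that comparison 98 of the 417 probes, 23.5%, and 2 of the 6 had an unadjusted p under 0.05. Without replicate 3 of DMSO, however, miR-7a was called lower there (-0.60, adjusted p = 0.000223), as it was with array weights (-0.58), with spike-in centring (-0.27) and among the deposited values (-0.20). miR-155 was called higher there without loess (0.76), among the deposited values (0.80) and with spike-in centring (0.69), as was the probe for miR-199a-3p and miR-199b (0.48, 0.46 and 0.42). For the resistant line, 1 of 6 was called against DMSO, where 23.3% of all probes were, and 3 of 6 against the treated sensitive cells, 1 higher and 2 lower, where 28.8% were. The count against DMSO was 2 without replicate 3 of DMSO, where miR-155 was called too (-0.18, adjusted p = 0.0298). The medians of the 6 were -0.04, 0.05 and 0.04 in the 3 comparisons. The probe for miR-199a-3p and miR-199b, which targets Mtor in human liver cells, was -0.38, -0.22, -0.39 and -0.40 in the resistant line and 0.02 to 0.20 elsewhere, and fell by 0.48 against DMSO (change -0.48 ± 0.05, adjusted p = 2.33e-05) and by 0.41 against the treated sensitive cells (-0.41 ± 0.05, adjusted p = 8.17e-05). Both calls were lost with the sample channel alone (adjusted p = 0.0823 and 0.0720), and the second change was -0.95 without loess, -0.97 with spike-in centring and -0.96 among the deposited values. miR-155, a miRNA of inflammatory responses, fell against the treated sensitive cells (-0.37 ± 0.10, adjusted p = 0.0155). This call was lost in 3 of 14 settings, Hy3 alone, processed signals and no background subtraction (adjusted p from 0.165 to 0.213), and over the 14 the change ran from -0.92 to -0.35. miR-7a, which acts on growth factor signalling, rose there (0.72 ± 0.17, adjusted p = 0.00720), and its 4 arrays of treated sensitive cells lay between -0.71 and -0.57. The change of miR-7a was 0.29 without loess, 0.28 with spike-in centring, 0.23 among the deposited values and 1.05 with processed signals, all called, and 0.40 with the sample channel alone, which was not. The remaining 3, miR-218, miR-101a and miR-144, had changes between -0.04 and 0.15, and neither miR-101a nor miR-144 exceeded the negative controls on any array. miR-101a was called higher in the resistant line in 7 of 13 alternative settings against DMSO, with a change over the 13 from 0.09 to 1.20, and in 6 of 13 against the treated sensitive cells, from 0.11 to 0.78. It was also called against the treated sensitive cells without replicate 1 of DMSO (0.15, adjusted p = 0.0455), and after 24 h of rapamycin among the deposited values (0.17). miR-218 was called against DMSO without loess (0.22).

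The miRNAs whose ratios followed each member over the 12 arrays differed between the members. The measure was Pearson's r over 219 other probes above the negative controls, and the arrays share groups, scan order and the loess fit, so r is a description. For miR-100 the 5 closest were miR-140 (r = 0.952), miR-1 (0.933), miR-30d (0.925), miR-206 (0.916) and miR-152 (0.911). Without replicate 3 of the DMSO group these were 0.922, 0.883, 0.867, 0.854 and 0.878. For miR-99a they were miR-10a* (0.937), miR-467b (0.918), miR-29c (0.918), miR-146b (0.798) and miR-22* (0.795). For miR-99b they were miR-9 (0.770), miR-873 (0.733), miR-181a (0.728), let-7a (0.700) and miR-449a (0.694). The Hy3 signal of miR-9 was at most 1.05 times the highest negative control on any array, so its r rests on values near the controls. Between members, r was 0.62 for miR-99a and miR-100, -0.23 for miR-99a and miR-99b and -0.19 for miR-99b and miR-100.

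The muscle-enriched miR-1 and miR-206 are among the closest to miR-100 by r over these same arrays, so a change alongside it is no separate result. In the resistant line against the treated sensitive cells 2 of the 4 muscle-enriched miRNAs fell, miR-1 (change -0.68 ± 0.20, adjusted p = 0.0230) and miR-206 (-0.61 ± 0.19, adjusted p = 0.0339), where 13.7% of all probes were called lower. Whether the calls of miR-1 and miR-206 hold in other settings or with an array left out was not examined. Their SDs in DMSO were 0.55 and 0.52, with replicate 3 low at -0.80 and -0.48. miR-133a and miR-133b did not exceed the negative controls on any array. The summed Hy3 signal of the 4 ran from 502.5 to 618.2 in the resistant line, from 765.2 to 846.5 in the treated sensitive cells and from 634 to 831.8 in DMSO. The part of these markers in the difference of miR-100 was not tested. The target sites in Mtor and Rptor, and the levels of their messengers, were not analysed here.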

How the data were processed

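The spot intensity values were deposited as Agilent Feature Extraction 9.5.3.1 output, per the submitters' processing notes and the headers, and are not normalized. The same files hold processed intensity values, background-adjusted and dye-normalized by that software, used as an alternative. The deposited value table holds log2 values whose scale and centring are not given in the sources used here. Against the raw log2 ratio (Hy3 over Hy5) of each array r was 0.975 to 0.998, so the direction is sample over pool, and the array medians ran from 0.393 to 0.604.

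In limma 3.58.1 (R 4.3.3), mean signals were corrected with normexp (offset 50, median local background), normalized by loess within arrays with control spots at weight 0, and averaged over a probe's 4 spots, leaving out flagged ones. One fit (lmFit, eBayes) over all 12 arrays gave the 3 contrasts, with Benjamini-Hochberg adjustment over 417 mouse probes. The fit was tested on simulated data. A probe was above the negative controls, as 220 were, when its median signal in Hy3 was over that of all 7 controls on at least 3 arrays of 1 group. Differences between members were tested by exact permutation.

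Named were the members, the measured neighbours, opposite strands and miRNAs of the list for mTOR components, and the 5 probes with the highest r to each member. A further list is not reported here. The members and lists were chosen with earlier results of these data known. The number of arrays limits the precision. No sample column was left unused (0).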

Additional observations from a re-analysis of the deposited data

Results flagged for a closer look

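Within groups of 4 arrays, a value was marked when its gap to the nearest other array was a larger share of the group's range than Dixon's 95% critical value, which chance gives in about 1 in 20 groups. Of 63 groups checked, 5 were marked, and none was a ratio or a signal of miR-99a, miR-99b or miR-100. let-7e, the neighbour of miR-99b, was at -1.07 on replicate 3 of the DMSO group, with the other 3 arrays between -0.01 and 0.04. On the same array miR-155 was at -0.19, with the others between 0.25 and 0.33. miR-99b* was at -0.43 on replicate 1 of the DMSO group, with the others between -0.23 and -0.20. On replicate 2 of the resistant line the probe for miR-199a-3p and miR-199b was at -0.22, with the others between -0.40 and -0.38, and miR-144 was at 0.045, with the others between -0.05 and -0.03.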

How the results depend on the processing

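Of 423 values of the family's changes and differences under other settings or with 1 array left out, 357 kept direction and side of the threshold, 11 lost the call, 20 gained one and 35 changed sign. For the other miRNAs and the differences from neighbours, 1258 of 1476 kept both and 121 changed sign. In 29 and 111 of the sign changes the value was called in neither setting, many near 0. The cause of these changes was not tested. The differences between miRNAs were called under no setting, and with so few arrays their side of the threshold could hardly change. Where the left-out array was in neither group compared, the direction could not change. The counts of values kept are therefore no measure of robustness.

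miR-100 in the resistant line against the treated cells lost its call with an offset of 10 (-0.51), the sample channel alone (-0.54), an unmoderated test (-0.43) and the replicate number as a block (-0.43, adjusted p = 0.0709). Arrays of the same number had deviations correlated from -0.11 to 0.15, and 0 of 12 matched best with its own number, so the numbers were not taken as pairs. miR-99a gained a call there without background subtraction (-0.27), without loess (-0.38), with processed signals (-0.73), in the value table (-0.44), with the sample channel alone (-0.34), with spike-in centring (-0.39), with array weights (-0.20) and with only the groups compared (-0.21). It also passed over probes above the negative controls (-0.21), but miR-99a enters that set only through the treated cells, where it is high, so this gives no support. After 24 h of rapamycin miR-100 gained one in the value table (0.46), with spike-in centring (0.42), without loess (0.48) and without background subtraction (0.38). Against DMSO the resistant line gained one for miR-100 in that table (-0.28) and with spike-in centring (-0.30), and for miR-99a with spike-in centring (-0.26). miR-99b* after 24 h of rapamycin gained one without loess (0.29).

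The count of called probes after 24 h of rapamycin, 14 in the main setting, was 49 without background subtraction, 118 without loess, 35 with processed signals, 111 in the value table, 115 with spike-in centring, 2 with the sample channel alone, 33 with the median over spots and 5 with only the groups compared. It ran from 4 to 34 with 1 array left out, at 4, 26 and 34 without replicates 2, 3 and 4 of DMSO, 8 and 5 without replicates 1 and 4 of the treated cells and 9 without replicate 1 of the resistant line. With the sample channel alone the resistant line had 54 calls against DMSO and 52 against the treated cells, and with array weights 183 against the latter. The share of calls that were higher after 24 h of rapamycin was 50% in the main setting, 99.2% without loess, 94.6% in the value table, 93.9% with spike-in centring and 33.3% in the unmoderated test. For the resistant line against DMSO it was 55.7%, and 72.5%, 42.1% and 40.7% in the first 3 of these, and against the treated cells 52.5%, and 17.4%, 11% and 16.1%.

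The sign changes follow, as log2 changes or as differences between miRNAs. Those without loess, with spike-in centring and in the deposited value table rest on nearly the same ratios and are not independent. Without loess, after 24 h of rapamycin, values were miR-99b 0.54, let-7c 0.81, let-7a 0.89, miR-125b-3p 0.27, miR-199a-3p 0.48, miR-101a 0.17, miR-144 0.032 and miR-100 minus miR-99b -0.054. Without loess, after 24 h of rapamycin, other values were miR-99a minus miR-99b -0.34, miR-99a minus let-7c -0.62, miR-100 minus let-7a -0.40 and miR-100 minus miR-125b-5p -0.46. Without loess, in the resistant line against DMSO, values were miR-99b 0.030, let-7e -0.14, let-7a 0.000493, miR-144 0.19, miR-99a minus miR-99b -0.21, miR-99a minus let-7c -0.061 and miR-99b minus let-7e 0.17. Without loess, against the treated cells, values were miR-99b -0.51, miR-125a-3p -0.084, miR-99a minus miR-99b 0.13, miR-99a minus let-7c 0.55 and miR-100 minus let-7a 0.18. In the deposited value table, after 24 h of rapamycin, values were miR-99b 0.475, let-7c 0.80, let-7a 0.88, miR-125b-3p 0.13, miR-199a-3p 0.46, miR-101a 0.17, miR-218 -0.024 and miR-100 minus miR-99b -0.015. In the deposited value table, after 24 h of rapamycin, other values were miR-99a minus miR-99b -0.33, miR-99a minus let-7c -0.66, miR-100 minus let-7a -0.42 and miR-100 minus miR-125b-5p -0.48. In the deposited value table, in the resistant line against DMSO, values were let-7e -0.16, let-7a 0.00103, miR-99b* -0.091, miR-125a-3p -0.015, miR-99a minus miR-99b -0.27, miR-100 minus miR-99a 0.022, miR-99a minus let-7c -0.17 and miR-99b minus let-7e 0.13. In the deposited value table, against the treated cells, values were miR-99b -0.50, miR-125a-3p -0.15, miR-99a minus miR-99b 0.061, miR-99a minus let-7c 0.48 and miR-100 minus let-7a 0.14. With spike-in centring, after 24 h of rapamycin, values were miR-99b 0.47, let-7c 0.75, let-7a 0.82, miR-125b-3p 0.20, miR-199a-3p 0.42, miR-101a 0.10, miR-100 minus miR-99b -0.054 and miR-99a minus miR-99b -0.34. With spike-in centring, after 24 h of rapamycin, other values were miR-99a minus let-7c -0.62, miR-100 minus let-7a -0.40 and miR-100 minus miR-125b-5p -0.46. With spike-in centring, in the resistant line against DMSO, values were let-7e -0.22, miR-99b* -0.055, miR-144 0.11, miR-99a minus miR-99b -0.21, miR-99a minus let-7c -0.061 and miR-99b minus let-7e 0.17. With spike-in centring, against the treated cells, values were miR-99b -0.52, miR-125a-3p -0.10, let-7a* -0.000184, miR-99a minus miR-99b 0.13, miR-99a minus let-7c 0.55 and miR-100 minus let-7a 0.18. With the sample channel alone, after 24 h of rapamycin, values were let-7c 0.16, let-7a 0.048, miR-125a-5p -0.00191, let-7a* 0.000303, miR-199a-3p 0.025, miR-101a 0.22, miR-144 0.022 and miR-100 minus miR-125b-5p -0.18. With the sample channel alone, in the resistant line against DMSO, values were let-7a 0.25, miR-144 0.037, miR-218 -0.022 and miR-100 minus miR-99b 0.30. With the sample channel alone, against the treated cells, values were miR-99b -0.33, let-7a 0.20, miR-99b* 0.0057, miR-125a-3p -0.017, miR-125b-3p 0.14, let-7a* -0.049, miR-218 -0.13 and miR-99a minus let-7c 0.061. With the sample channel alone, against the treated cells, other values were miR-99b minus let-7e -0.27. With the scanner's processed signals, after 24 h of rapamycin, values were miR-125b-3p 0.087 and miR-101a 0.42. With the scanner's processed signals, in the resistant line against DMSO, values were let-7a 0.085, let-7a* 0.10, miR-155 0.14, miR-99a minus miR-99b -0.32, miR-100 minus miR-99a 0.18 and miR-99a minus let-7c -0.27. With the scanner's processed signals, against the treated cells, the value was let-7a 0.11. Without background subtraction, after 24 h of rapamycin, the value was miR-101a 0.10. Without background subtraction, in the resistant line against DMSO, values were miR-99b* -0.00576, miR-155 0.077, miR-99a minus miR-99b -0.037 and miR-100 minus miR-99a 0.020. With an offset of 10, after 24 h of rapamycin, values were let-7a 0.00626, miR-125a-5p -0.026 and miR-125b-3p 0.10. With an offset of 10, in the resistant line against DMSO, values were let-7a 0.016 and miR-100 minus miR-99b 0.00641. With an offset of 10, against the treated cells, the value was let-7a 0.00974. With array weights, after 24 h of rapamycin, values were miR-125a-3p -0.018, miR-125b-3p 0.045 and miR-218 -0.013. With array weights, in the resistant line against DMSO, values were let-7e -0.042 and let-7a 0.000902. With array weights, against the treated cells, the value was let-7a 0.011. With the median over spots, after 24 h of rapamycin, values were let-7a 0.012 and miR-125a-5p -0.00688. With the median over spots, in the resistant line against DMSO, values were let-7a 0.022 and miR-100 minus miR-99b 0.00188. With the median over spots, against the treated cells, the value was let-7a 0.00909. With median spot signals, against the treated cells, the value was let-7a 0.00267.

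With 1 array left out in turn, ranges are given where a sign changed or a main call was lost, and for miR-99a against the treated cells, which gained a call. Other gained calls are given in the Results. After 24 h of rapamycin, ranges were let-7a from -0.036 to 0.013, let-7c from -0.047 to 0.018, miR-101a from -0.068 to 0.017, miR-125a-3p from -0.00697 to 0.12 and miR-125a-5p from -0.028 to 0.030. After 24 h of rapamycin, further ranges were miR-125b-3p from -0.10 to 0.036, miR-125b-5p from 0.22 to 0.31, miR-218 from -0.056 to 0.16 and miR-100 minus miR-125b-5p from -0.038 to 0.15. In the resistant line against DMSO, ranges were let-7a* from -0.13 to 0.027, let-7a from -0.038 to 0.010, let-7e from -0.13 to 0.24, miR-100 from -0.24 to 0.00991 and miR-144 from -0.032 to 0.00308. In the resistant line against DMSO, further ranges were miR-218 from -0.0081 to 0.21, miR-99a from -0.11 to 0.014, miR-99b* from -0.016 to 0.082, miR-100 minus let-7a from -0.23 to 0.048 and miR-100 minus miR-99a from -0.21 to 0.035. In the resistant line against DMSO, further ranges were let-7c from -0.19 to -0.125, miR-100 minus miR-99b from -0.19 to 0.11, miR-99a minus miR-99b from -0.068 to 0.12 and miR-99b minus let-7e from -0.34 to 0.072. Against the treated cells, ranges were let-7a from -0.017 to 0.016, let-7c from -0.16 to -0.12, miR-100 from -0.48 to -0.36, miR-99a from -0.26 to -0.18 and miR-99b* from -0.079 to 0.00975. The slide block was not run, since each array is on a slide of its own.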
